A study of Mus musculus with 8 samples.

Results

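AP-1 is a family of dimeric transcription factors, and its members on the array were examined in glomeruli, the capillary filters of the kidney, of mice with and without the tetraspanin Cd151. The members were the rows of the signal table whose gene symbol was Fos, Fosb, Fosl1, Fosl2, Jun, Junb, Jund1, Atf3 or Batf. Of these 9 names, 8 had a row, with 1 probe each, among 18120 symbols in all, and no row carried the symbol Fosl2. The Cd151+/+ group held 4 male FVB/N mice with an intact gene, and the Cd151-/- group held 4 male FVB/N mice without it. All were 3 weeks of age, the labels name no treatment, and RNA of each mouse went onto an Illumina array of its own (MouseRef-8 v1.1). CD151 is a membrane protein that holds laminin-binding integrins, and its loss in this strain damages the glomerular basement membrane, so the comparison asks which glomerular transcripts differ early in that disease. Glomeruli were collected with magnetic beads after warm collagenase digestion of the kidney.

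AP-1 dimers are built from a Fos protein with a Jun protein, or from 2 Jun proteins, held together by leucine zippers, and they bind a short DNA element in many promoters and enhancers. Fos, Fosb, Jun, Junb and Atf3 are immediate early genes: stress, growth factors and adhesion signals switch them on through MAP kinases within minutes, without new protein synthesis, and their transcripts decay quickly. In the kidney AP-1 is known for its part in injury responses and in matrix and protease gene expression, and warm enzymatic digestion of tissue is also known to induce its members.

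The arrays fell into 2 sets by the background inferred for each from its negative-control ranks. Cd151+/+ mice 1 and 2 and Cd151-/- mice 3 and 4 had a background of 59.0 to 69.5 signal units, and Cd151+/+ mice 3 and 4 and Cd151-/- mice 1 and 2 one of 123.4 to 134.7. Each set thus held 2 mice of each genotype, and what the sets were in the laboratory is not given in the sources used here. Between 11291 and 12359 probes were detected per array (detection p-value of 0.05 or lower), and limma tested the 14967 probes that 1 array or more detected. The 3 Cd151 probes were detected in every Cd151+/+ mouse (4 of 4) and in 0 of 4 Cd151-/- mice, with limma adjusted p-values of 6.51e-10, 2.89e-08 and 2.97e-07. Nothing in the labels says whether the mice shared litters or processing days. In whole glomeruli, fewer cells of a type and less RNA per cell cannot be told apart.

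Jun and Junb varied together across the mice, and Fos and Fosb differed on average between the array sets. The stretches of DNA just before the transcription start of these genes are therefore shown. They are the 120 bases before the start in RefSeq's annotation of mouse assembly GRCm38.p6, read 5′ to 3′ in the direction of the gene. The assembly is of C57BL/6J, not FVB/N. Capitals mark TGACG, the core of a cyclic AMP response element, TGACATCA, an AP-1 and ATF element, and TATAAA, the TATA box.
Jun, chr4:95052223-95052342, minus strand: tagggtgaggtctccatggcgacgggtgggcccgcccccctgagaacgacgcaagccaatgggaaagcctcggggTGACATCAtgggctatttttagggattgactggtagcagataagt
Junb, chr8:84978749-84978868, minus strand: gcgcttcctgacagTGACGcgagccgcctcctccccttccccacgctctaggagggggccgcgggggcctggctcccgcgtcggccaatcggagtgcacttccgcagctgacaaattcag
Fos, chr12:85473770-85473889, plus strand: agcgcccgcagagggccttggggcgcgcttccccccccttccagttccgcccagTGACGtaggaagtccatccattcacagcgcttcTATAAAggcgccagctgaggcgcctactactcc
Fosb, chr7:19310046-19310165, minus strand: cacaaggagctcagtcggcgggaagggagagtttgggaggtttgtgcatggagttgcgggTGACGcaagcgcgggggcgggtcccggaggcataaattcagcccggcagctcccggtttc
Jun held TGACATCA 45 to 38 bases before its start. Junb held TGACG 106 to 102 bases, Fosb 60 to 56 bases and Fos 66 to 62 bases before the start, and Fos held TATAAA 33 to 28 bases before it. Of the 9 members, 8 had a promoter in the table, Jund1 under its present symbol Jund, and all 250 bases before each start were searched on both strands. Fos held a second TGACG 129 to 125 bases before the start, Batf held TGACG 98 to 94 bases before it and Atf3 held it on the other strand. The windows of Jund1 and Fosl2 held none of the motifs searched. None of the 8 windows held TGACTCA, the classic AP-1 element, TGACGTCA, the full cyclic AMP response element, in which TGACG is contained, or a CArG box, the serum response factor element. Bases farther from the start were not searched, so an element there, such as a CArG box of Fos, would have been missed. Whether the motifs bear on the patterns among the mice was not tested. Among 32851 mouse promoter windows of that length, 17.8% held TGACG, 2.93% TGACATCA, 12.4% TATAAA, 4.46% TGACTCA, 1.55% TGACGTCA and 1.47% a CArG box.

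The Jun genes were lower in Cd151-/- than in Cd151+/+ glomeruli, each by more than a factor of 2 on average, and none of these differences passed adjustment for all probes tested. All levels that follow are normalised log2 signals, on which a step of 1 is a doubling, and the level of one probe is not set against that of another. Jun encodes c-Jun, the founding partner of the family. Jun measured 12.20, 12.15, 11.19 and 11.81 in Cd151+/+ mice 1 to 4 and 10.61, 11.02, 11.25 and 10.25 in Cd151-/- mice 1 to 4. Only Cd151-/- mouse 3 lay within the range of the controls, just above Cd151+/+ mouse 3. The mean level was 11.84 ± 0.46 (SD, n = 4) against 10.78 ± 0.44 (SD, n = 4), 2.08-fold lower in Cd151-/-, a log2 difference of -1.06 (SE 0.30, 95% interval -1.71 to -0.40). The limma p-value was 0.00453 unadjusted and 0.918 adjusted, and the two-sided exact permutation p-value was 0.0571.

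Junb encodes JunB, a relative of c-Jun that can restrain it. Junb measured 13.45, 13.07, 12.03 and 13.08 in Cd151+/+ mice 1 to 4 and 11.16, 12.55, 11.82 and 10.18 in Cd151-/- mice 1 to 4. Cd151-/- mouse 2 exceeded Cd151+/+ mouse 3, and the other Cd151-/- mice lay below all controls. The mean was 12.91 ± 0.61 (SD, n = 4) against 11.42 ± 1.01 (SD, n = 4), 2.80-fold lower in Cd151-/-, a log2 difference of -1.48 (SE 0.47, 95% interval -2.52 to -0.44). The limma p-value was 0.00943 unadjusted and 0.918 adjusted, and the exact permutation p-value was 0.0571.

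Jund1, the array's name for Jund, encodes JunD, the member of the Jun group that most cells carry without stimulation. It measured 9.04, 8.95, 8.43 and 8.90 in Cd151+/+ mice 1 to 4 and 7.72, 8.26, 7.74 and 7.23 in Cd151-/- mice 1 to 4. The genotypes did not overlap. Jund1 was 2.13-fold lower in Cd151-/-, with means of 8.83 ± 0.27 (SD, n = 4) and 7.74 ± 0.42 (SD, n = 4) and a log2 difference of -1.09 (SE 0.26, 95% interval -1.66 to -0.52). The limma p-value was 0.00143 unadjusted and 0.905 adjusted. The exact permutation p-value of 0.0286 is the smallest that 4 mice against 4 allow.

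**Figure D1:**
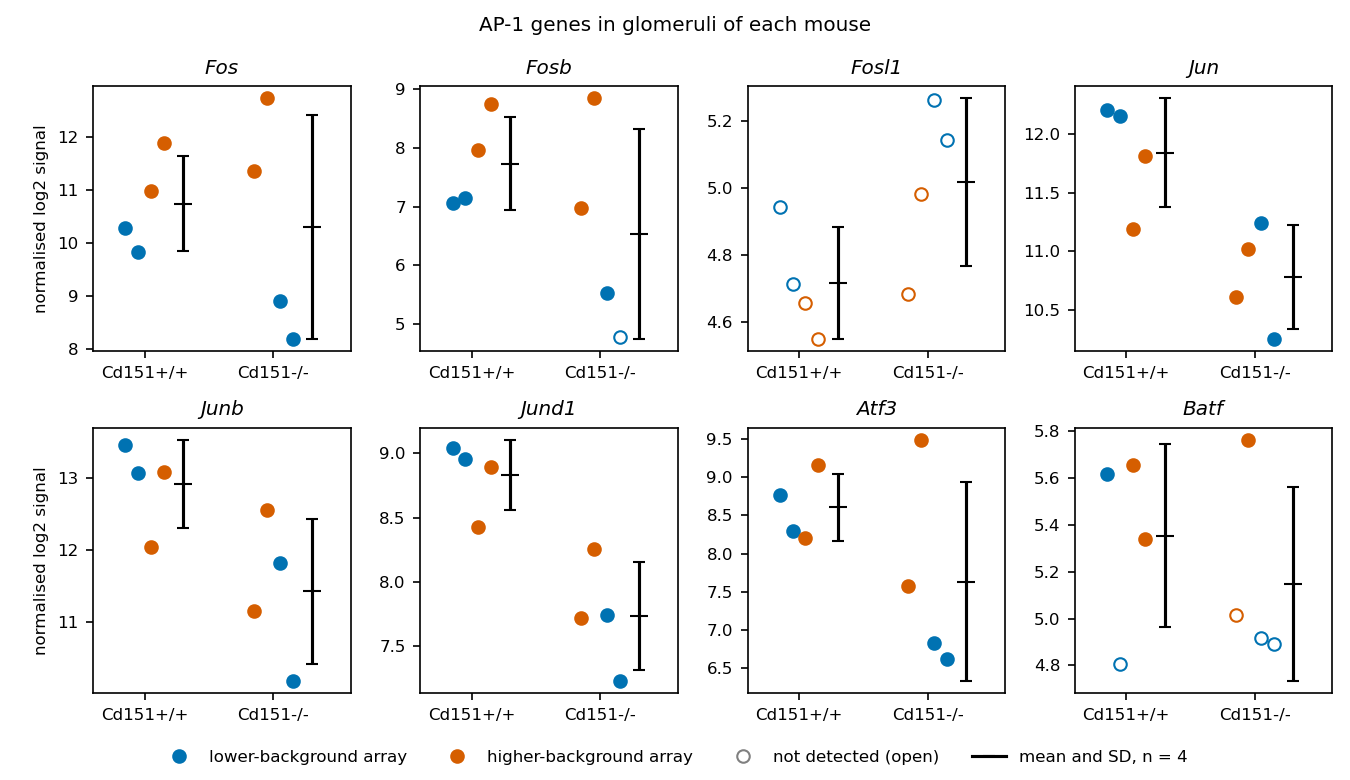
Normalised log2 signal of the 8 AP-1 probes in each of 8 mice by genotype, coloured by the background set of the array, with open points where the probe was not detected and black bars for the mean and SD of 4 mice. The y axes differ between panels and do not start at 0. Jund1 separates the genotypes, Jun and Junb overlap in 1 Cd151-/- mouse each, and the 4 orange points of Fos lie above its 4 blue points in both genotypes.

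The Fos genes did not separate the genotypes. Fos, which encodes c-Fos, the partner first induced by many stimuli, measured 10.27, 9.82, 10.97 and 11.89 in Cd151+/+ mice 1 to 4 and 11.35, 12.73, 8.89 and 8.19 in Cd151-/- mice 1 to 4. Both the highest and the lowest Fos levels of all 8 mice were in Cd151-/- mice. The log2 difference was -0.45 (SE 0.87, 95% interval -2.37 to 1.48), with a limma p-value of 0.620 unadjusted and 0.938 adjusted and an exact permutation p-value of 0.714. Its sign rested on single mice: leaving out Cd151-/- mouse 4 gave 0.25, leaving out Cd151-/- mouse 3 gave 0.02, and without Cd151-/- mouse 2 it was -1.27.

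Fosb encodes FosB, a second early Fos partner. Fosb measured 7.07, 7.14, 7.97 and 8.75 in Cd151+/+ mice 1 to 4 and 6.97, 8.85, 5.52 and 4.79 in Cd151-/- mice 1 to 4, and it was not detected in Cd151-/- mouse 4. Cd151-/- mouse 2 was the highest of all and the other Cd151-/- mice lay below every control. The log2 difference was -1.20 (SE 0.75, 95% interval -2.85 to 0.45), with a limma p-value of 0.137 unadjusted and 0.918 adjusted and an exact permutation p-value of 0.257. Without Cd151-/- mouse 2 the difference was -1.92, with an unadjusted limma p-value of 0.00404 and an adjusted one of 0.486. Without Cd151-/- mouse 4 it was -0.63. Fosl1, the Fra-1 gene, was detected on none of the 8 arrays, with deposited signals between 0.902 and 1.15 times the array's background, and was not tested.

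The remaining members are partners from outside the Fos and Jun groups. Atf3 encodes a stress-induced factor that pairs with Jun proteins. Atf3 measured 8.76, 8.29, 8.21 and 9.15 in Cd151+/+ mice 1 to 4 and 7.58, 9.48, 6.83 and 6.63 in Cd151-/- mice 1 to 4. As for Fosb, Cd151-/- mouse 2 was the highest of all and the other Cd151-/- mice lay below every control. The log2 difference of Atf3 was -0.97 (SE 0.54, 95% interval -2.16 to 0.22), with a limma p-value of 0.0990 unadjusted and 0.918 adjusted and an exact permutation p-value of 0.229. Without Cd151-/- mouse 2 it was -1.59, with an unadjusted limma p-value of 0.000508 and an adjusted one of 0.244, and without Cd151-/- mouse 4 it was -0.64. Batf, a partner of Jun proteins in lymphocytes, was detected in 3 Cd151+/+ mice and 1 Cd151-/- mouse, with levels from 4.80 to 5.76 and a log2 difference of -0.21 (SE 0.28, limma adjusted p-value 0.920).

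Counted together, 3 of 7 tested members were lower in Cd151-/- at an unadjusted limma p-value below 0.05 and 0 were higher, where 2.61% of all tested probes were lower and 1.69% higher by the same limit. After Benjamini-Hochberg adjustment 0 members passed, and 0.0334% of all tested probes did. All 7 differences were negative, with a median of -1.06 where the median over all tested probes was -0.01. The genotypes did not overlap, with Cd151-/- below, for 1 of the 7, against 1.46% of tested probes. The lowest of the 8 mice was Cd151-/- mouse 4 for 6 of the 7 members, the exception being Batf, so that the differences are not independent of each other. Without that mouse the log2 differences were -0.88 for Jun, -1.06 for Junb and -0.92 for Jund1, with unadjusted limma p-values of 0.0154, 0.0257 and 0.00459 and an adjusted p-value of 0.933 for each.

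The background set of the array moved with the Fos genes, and for the Jun genes no set difference passed adjustment. With genotype in the same limma fit, Fos was 5.44-fold higher on the higher-background arrays, a log2 difference of 2.44 (SE 0.47, 95% interval 1.38 to 3.50, adjusted p-value 0.00722). The Fos levels of the sets did not overlap in 8 mice. Its deposited signals, before any normalisation, were 210 to 635 in the lower-background set and 2236 to 10940 in the other. The latter arrays were brighter throughout, with a median signal of 143 to 164 against 65.7 to 77.4. As multiples of the array's background, the Fos signals were 3.05 to 9.74 and 18.1 to 84.6. Fosb was 4.02-fold higher there, a log2 difference of 2.01 (SE 0.45, 95% interval 1.01 to 3.00, adjusted p-value 0.0123), although its sets overlapped. These 2 of 7 members passed where 13.2% of all tested probes were higher on those arrays by the same limit. In the other direction, 1596 of the 14967 tested probes passed as lower on those arrays. The set differences of Jun, Junb and Jund1 were -0.30, 0.08 and 0.09, with limma adjusted p-values of 0.427, 0.921 and 0.816 and 95% intervals of -0.91 to 0.30, -1.01 to 1.16 and -0.45 to 0.62. The Jun set difference was -0.57 without Cd151-/- mouse 4 (unadjusted limma p-value 0.0213, adjusted 0.0614), and leaving out Cd151-/- mouse 2, Cd151-/- mouse 3 or Cd151+/+ mouse 3 gave -0.47, -0.18 and -0.10. For Atf3 the set difference was 0.97 (95% interval -0.06 to 2.01, adjusted p-value 0.149) and for Batf it was 0.39 (adjusted p-value 0.248).

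Within the sets, 2 mice against 2, the genotype difference of the Jun genes kept its sign. Jun differed by -1.43 on the lower-background arrays and by -0.69 on the higher-background arrays, Junb by -2.26 and -0.70, and Jund1 by -1.51 and -0.67. For Jun and Jund1 both Cd151-/- mice lay below both controls in each set, as did 6.68% of all tested probes. Fos differed by -1.50 on the lower-background and by 0.61 on the higher-background arrays. The values were -1.95 and -0.45 for Fosb, -1.80 and -0.15 for Atf3 and -0.31 and -0.11 for Batf. Thus 6 of 7 members were lower in Cd151-/- in both sets, against 32.5% of all tested probes.

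**Figure D2:**
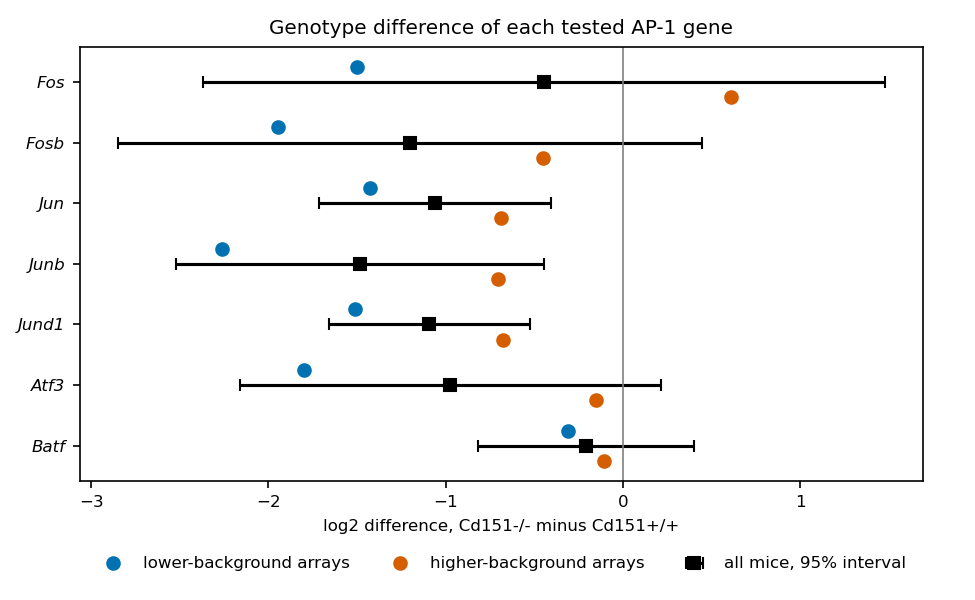
Log2 difference of Cd151-/- minus Cd151+/+ for the 7 tested AP-1 genes: black squares with 95% limma intervals for all 8 mice, and points for the difference of means within each background set (2 mice against 2, no test). The intervals of Jun, Junb and Jund1 lie below 0, and for each gene the lower-background point lies to the left of the higher-background point.

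With the set as a block in the limma fit, 4 members were lower at an unadjusted p-value below 0.05, against 6.08% of tested probes, and 0 passed adjustment. Fosb joined the Jun genes, with a p-value of 0.0232 unadjusted and 0.402 adjusted, and the adjusted p-values of Jun, Junb and Jund1 were 0.349, 0.372 and 0.326. The interaction of genotype and set in limma was positive for all 7 members, meaning a less negative difference on the higher-background arrays, as it was for 53% of tested probes. It passed an unadjusted p-value of 0.05 for 1 member, Fos (log2 interaction 2.12, SE 0.70, p-value 0.0145 unadjusted and 0.977 adjusted), against 3.51% of probes, and 0 members or probes passed adjustment.

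Among the mice, the Jun genes varied together. Over 8 mice the Pearson correlation of levels was 0.936 between Jun and Junb (Spearman 0.881), 0.934 between Jun and Jund1 (Spearman 0.929) and 0.957 between Junb and Jund1 (Spearman 0.952). The exact permutation p-values of these Pearson coefficients, adjusted over the 10 pairs of the 5 members detected on all arrays, were 0.00273, 0.00446 and 0.00273, and those of the Spearman coefficients 0.0241, 0.0112 and 0.0112 (unadjusted 0.000546, 0.00134 and 0.000347 for Pearson, and 0.00724, 0.00223 and 0.00114 for Spearman). Without the 2 mice farthest from the median of the first gene the coefficients were 0.869, 0.860 and 0.913, and on deviations from the genotype means they were 0.868, 0.801 and 0.972. Within the lower-background set they were 0.996, 0.976 and 0.970, and within the higher-background set 0.892, 0.987 and 0.915, with 4 mice in each. The permutations exchanged mice across genotypes, so the p-values, here and for Atf3 and Fos below, include any genotype difference that the genes share. Coefficients on deviations from the genotype means were not tested.

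The highest correlation of Atf3 was with Fos (Pearson 0.839, exact permutation p-value 0.0112, adjusted 0.0280; Spearman 0.786, p-value 0.0279, adjusted 0.0559). It was 0.617 without the 2 farthest mice, 0.890 on deviations from the genotype means, and 0.97 and 0.83 within the lower- and the higher-background set. Atf3 also varied with Junb (Pearson 0.797, exact permutation p-value 0.0181, adjusted 0.0361; Spearman 0.810, p-value 0.0218, adjusted 0.0545) and with Jund1 (Pearson 0.777, exact permutation p-value 0.0265, adjusted 0.0442; Spearman 0.667, p-value 0.0831, adjusted 0.139). Without the 2 farthest mice the coefficients with Junb and Jund1 were 0.677 and 0.640, within the lower-background set 0.923 and 0.978, and within the higher-background set 0.898 and 0.653. The correlation of Atf3 with Jun was 0.562, with an exact permutation p-value of 0.151 (adjusted 0.216; Spearman 0.476, p-value 0.243, adjusted 0.347). The Pearson correlation of Fos was 0.156 with Jun, 0.462 with Junb and 0.427 with Jund1, with exact permutation p-values of 0.705, 0.249 and 0.286 (adjusted 0.705, 0.312 and 0.317; Spearman 0.00, 0.381 and 0.214, p-values 1.00, 0.360 and 0.619). On deviations from the genotype means these 3 coefficients were 0.05, 0.51 and 0.60. Within the lower-background set they were 0.98, 0.98 and 0.98, and within the higher-background set 0.13, 0.54 and 0.15, with 4 mice in each. In all, 6 of the 10 pairs passed adjustment by Pearson's coefficient.

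**Figure D3:**
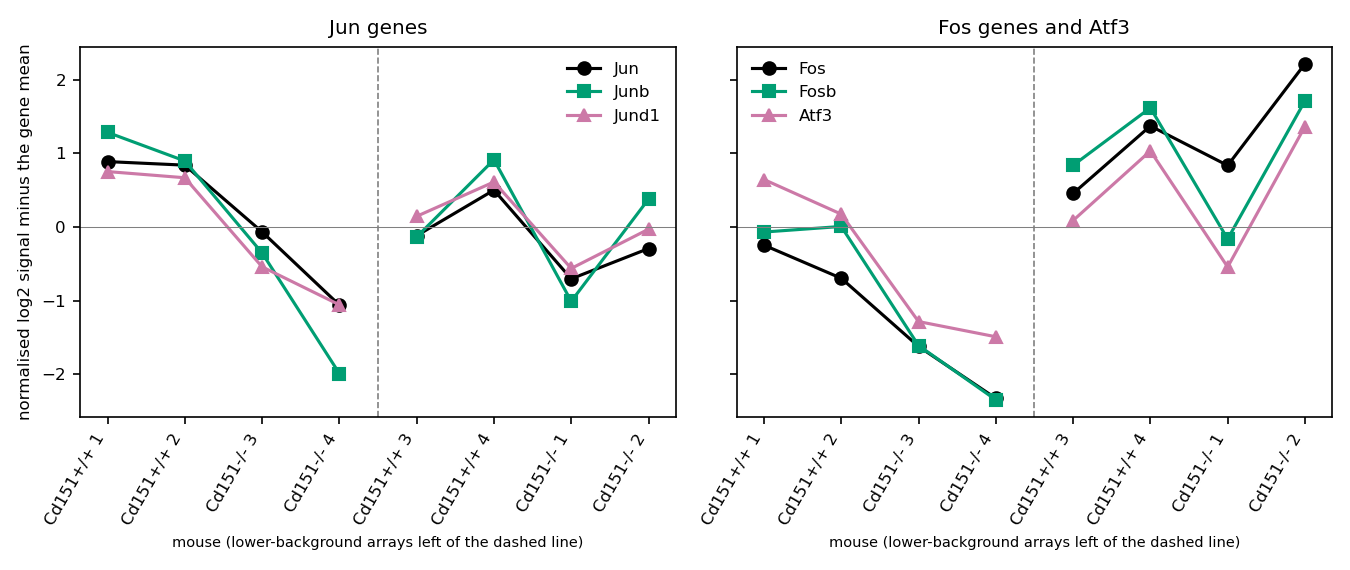
Normalised log2 signal minus the mean of the gene over 8 mice, for Jun, Junb and Jund1 on the left and Fos, Fosb and Atf3 on the right, with mice on the x axis in the order of array set and genotype. The Jun genes follow one another in both sets, while Fos stands above its mean in all 4 mice of the higher-background set and below it in all 4 of the other.

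Of 2192 genes detected on all arrays and with an SD over the mice of at least 0.5, those whose levels were most like Junb were Zfp36 (Pearson 0.986 over 8 mice), Bcat2 (0.965), Jund1 (0.957), Cebpb (0.953), Pcolce (0.950), Sepw1 (0.950), Myd116 (0.946), Zcchc3 (0.946), 1110019L22Rik (0.938) and Jun (0.936). Zfp36 encodes tristetraprolin, which binds AU-rich elements and speeds the decay of early-response transcripts, and Cebpb encodes another basic leucine zipper factor. Among those most like Jund1 were Junb (0.957), Jun (0.934), Bcat2 (0.933), Sepw1 (0.927), Zfp36 (0.924), Dll4 (0.923), 1110019L22Rik (0.918), D830007B15Rik (0.905) and Krt7 (0.902). All these points share the mice, the arrays and the genotype split, and they are given as a description.

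Other genes of the pathway showed few differences between the genotypes. Of 17 tested kinases and scaffolds of the ERK, JNK and p38 routes, which phosphorylate and induce AP-1, 0 were lower and 0 higher at an unadjusted limma p-value below 0.05, with a median log2 difference of -0.09. The differences of largest size were those of Map2k7, the kinase that activates JNK (-0.60, SE 0.28, p-value 0.0550, adjusted 0.918), Mapk3, which encodes ERK1 (-0.53, SE 0.24, p-value 0.0523, adjusted 0.918), Rps6ka1 (0.40) and Map2k6 (-0.33). With the array set as a block Map2k7 (p-value 0.00975, adjusted 0.365) and Mapk3 (p-value 0.0274, adjusted 0.415) were lower at the unadjusted limit, 2 of the 17, against the 6.08% of probes given above. Of 8 tested factors that act at the Fos and Jun promoters 0 were lower and 0 higher, with a median of -0.25, and the largest differences were those of Mkl1 (-0.53), Stat3 (-0.45), Mef2a (-0.42) and Creb1 (-0.26). Srf, the serum response factor that drives Fos, was higher on the higher-background arrays by 1.09 log2 units (limma adjusted p-value 0.00609). Of the 17 kinases and scaffolds, 4 were lower on those arrays after limma adjustment and 0 higher. Of all genes with a tested probe, 11% were lower and 12.3% higher by that limit. Of 15 other tested basic leucine zipper factors 0 were lower and 0 higher between genotypes, with a median of -0.04, and Bach1 (-0.61), Atf4 (0.39), Mafg (0.35) and Batf3 (-0.28) differed most.

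Of 13 tested feedback genes 2 were lower in Cd151-/- at an unadjusted limma p-value below 0.05, against 2.61% of all tested probes, with a median of -0.05 over the list. They were Spry4, a Sprouty inhibitor of the MAP kinase route (-0.74, SE 0.28, p-value 0.0243, adjusted 0.918), and Zfp36 (-0.99, SE 0.39, p-value 0.0282, adjusted 0.918). Dusp4 (0.35) and Dusp1 (-0.34), both MAP kinase phosphatases, did not pass, and Dusp1 was higher on the higher-background arrays by 1.28 (limma adjusted p-value 0.00620). Of 20 tested immediate early genes outside AP-1, 1 was lower in Cd151-/-, which was again Zfp36, with a median of -0.21. The largest other differences were Klf4 (-0.81), Klf2 (-0.81) and Egr1 (-0.68). After limma adjustment 6 of the 20 were higher on the higher-background arrays and 0 lower, against 13.2% of all tested probes higher. Egr1 was among the 6 (2.01, limma adjusted p-value 0.00806). With the array set as a block 2 of the 20 were lower, Zfp36 and Klf2 (p-value 0.0305, adjusted 0.417), and 1 was higher, Myc (0.49, p-value 0.0114, adjusted 0.370), where 5.21% of all tested probes were higher in that fit. Myc was detected in 0 Cd151+/+ mice and in only 2 Cd151-/- mice, with mean levels of 4.81 and 5.30. Its difference therefore includes arrays on which it was not detected. Among the feedback genes the block changed no call.

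Among genes with AP-1 sites in textbook accounts 0 passed adjustment between the genotypes. Of 23 tested targets 0 were lower and 2 were higher in Cd151-/- at an unadjusted limma p-value below 0.05, against 2.61% and 1.69% of all tested probes. The median difference was 0.06. The 2 were Mmp10, which encodes the matrix protease stromelysin-2, detected in 0 of 4 controls and in 4 of 4 Cd151-/- mice and at least 2.64-fold higher in Cd151-/- (p-value 0.000839, adjusted 0.744), and Timp1, an inhibitor of such proteases (0.79, SE 0.26, p-value 0.0124, adjusted 0.918). The bound for Mmp10 is the Cd151-/- mean over the dimmest probe still detected on each control array. The groups did not overlap for either gene, with Cd151-/- above, as was the case for 128 of 14967 tested probes. Spp1, which encodes osteopontin, differed by 1.36 (p-value 0.111, adjusted 0.918) and Tgfb1 by -0.51 (p-value 0.155, adjusted 0.918). With the array set as a block Spp1 was also higher at the unadjusted limit (p-value 0.00829, adjusted 0.356) and Bcl2l11, which encodes a cell death inducer, was lower (-0.41, p-value 0.0313, adjusted 0.417). In that fit 3 of 23 were thus higher and 1 lower, against 5.21% and 6.08% of all tested probes. Over 11240 genes with a tested probe, 50.3% were lower by sign in Cd151-/-. Where a gene had several probes the brightest is given, and the tested probes of Map2k6, Stat3, Creb1, Dusp4, Klf4 and Hsp90ab1 differed in sign among themselves.

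Markers of stress from handling and of other cell types were set beside the members. Of 9 tested heat shock and dissociation genes 0 passed between genotypes (median -0.21), the largest differences being Socs3 (-1.20), Hspd1 (1.09), Hsph1 (0.50) and Hsp90ab1 (-0.40). After limma adjustment 2 of the 9, Hspa8 and Hspd1, were higher on the higher-background arrays, against 13.2% of all tested probes. The median set difference of the 9 was 0.47, and Hspa1a (-0.92), Hspe1 (-0.49) and Hsp90ab1 (-0.45) were lower there by sign. With the array set as a block Hspd1 was higher (p-value 0.00322, adjusted 0.349) and Socs3 lower (p-value 0.0287, adjusted 0.416) in Cd151-/- at the unadjusted limit. The podocyte markers, which define the labelled tissue, were detected, and of 7 tested all were lower by sign in Cd151-/-, with a median of -0.22, 1 at an unadjusted limma p-value below 0.05 (Plce1, -0.56) and summed levels of 102494 to 109483 in Cd151+/+ and 87777 to 111315 in Cd151-/- mice, on the linear scale. Nphs1 and Synpo were among the podocyte markers with no tested probe. Of 10 endothelial markers 9 were lower by sign, with a median of -0.39 and 0 past that limit, and summed levels were 41519 to 53697 against 27423 to 52926. On the higher-background arrays 3 of the 10 were lower and 1 higher after limma adjustment, against 11% and 12.3% of all genes with a tested probe. Of 7 mesangial and smooth muscle markers Pdgfrb was lower (-0.74) and Acta2 higher (0.71) in Cd151-/- at an unadjusted limma p-value below 0.05. At that limit 2.61% of all tested probes were lower and 1.69% higher.

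All 11 tested proximal tubule markers were higher by sign in Cd151-/-, with a median of 0.64. At an unadjusted limma p-value below 0.05, 2 of them, Slc22a8 and Kap, were higher, against 1.69% of all tested probes. Summed levels were 23524 to 74801 in Cd151+/+ and 48922 to 89071 in Cd151-/- mice. Each of the 11 was raised more on the lower-background arrays, and Slc5a2 (-0.34), G6pc (-0.30) and Fbp1 (-0.03) were lower in Cd151-/- on the higher-background arrays. Lrp2 and Pck1 were detected in 0 of 4 controls and 2 of 4 Cd151-/- mice. All 4 tested erythroid markers were lower by sign, Alas2 (-2.57) and Hba-a1 (-0.69) at an unadjusted limma p-value below 0.05, against 2.61% of all tested probes. Their summed level of 38095 to 50125 in Cd151+/+ mice did not overlap the 17920 to 37502 of Cd151-/- mice. That sum was mostly Hba-a1, with a mean level of 15.41 in Cd151+/+ mice against 9.64 for Alas2 and 9.27 for Slc4a1. Each of the 4 genes by itself overlapped between the genotypes. Of all tested probes, 1.46% did not overlap, with Cd151-/- below. Slc4a1 was higher by 0.17 in Cd151-/- on the higher-background arrays. Hbb-b1 (-0.02) was detected in 0 of 4 controls and 1 of 4 Cd151-/- mice. Of 6 distal nephron markers 0 passed (median -0.02). Of 7 tested leukocyte markers 0 passed (median 0.01), and Ptprc, Emr1, Itgam, Cd79a and Fcer1g were not detected. With the array set as a block the endothelial marker Ehd3 (-0.63, p-value 0.0305, adjusted 0.417) was lower and the proximal tubule marker Pck1 (0.61, p-value 0.0263, adjusted 0.411) higher at the unadjusted limit, and the other marker calls were as without it. Myc, Bcl2l11, Pck1, Hspa1a, Hspe1, Lrp2, Slc5a2, G6pc, Fbp1, Slc4a1 and Hbb-b1 are named after their values were seen. The part of these markers in the AP-1 differences was not tested.

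**Figure D4:**
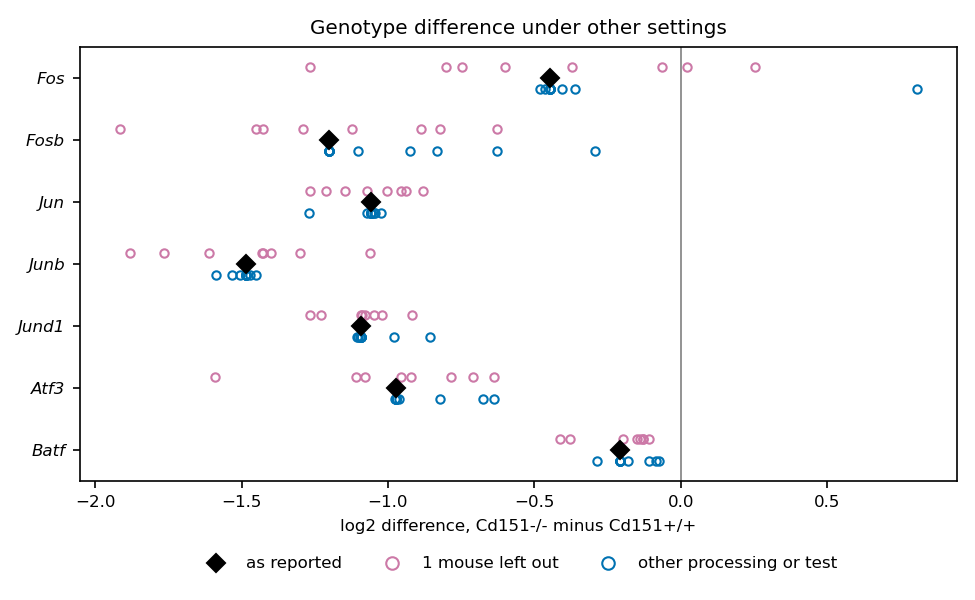
Log2 difference of Cd151-/- minus Cd151+/+ for the 7 tested AP-1 genes as reported (black diamonds), with 1 of the 8 mice left out (pink circles) and under other processing or tests (blue circles). Jun, Junb and Jund1 stay below 0 throughout, between -1.27 and -0.88, -1.88 and -1.06, and -1.27 and -0.86, and Fos crosses 0.

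Across 20 alternatives in processing, test or mice, Jun, Junb and Jund1 were lower in Cd151-/- at an unadjusted limma or equal-variance p-value below 0.05 in all 20, and the adjusted p-value did not pass in any, its lowest being 0.0885 with limma array weights.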

How the data were processed

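The authors hybridised biotin-labelled glomerular RNA of 8 mice to Illumina MouseRef-8 v1.1 arrays and deposited a table of signal intensity per probe, neither background-corrected nor normalised, for 25697 probes. Beside each intensity the authors deposited a detection p-value, in steps of 1 over 798 negative controls. The study's own values were normalised by cubic spline in GenomeStudio. The alternative run here was a cubic spline through 15 quantiles of the background-corrected log2 signals, and not the GenomeStudio procedure itself. Groups came from the sample labels. In R 4.3.3, limma 3.58.1 served for background correction (normexp, offset 16, with the background of an array estimated through its detection p-values), quantile normalisation (neqc) and the moderated fit of genotype (lmFit, eBayes). The 14967 probes that reached a detection p-value of 0.05 on any array entered the fit and the Benjamini-Hochberg adjustment. Single values were also tested by two-sided exact permutation over 70 relabelings. The number of arrays and the median signal of detected probes, 3.00 to 4.46 times background, limit the precision.

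The AP-1 members, the gene lists, the split of the arrays and the tests were chosen with earlier results of these data known. The array set as a tested term and its interaction with genotype were added after the arrays were seen. Named genes were every member probe, Cd151, in each pathway list the genes past an unadjusted p-value of 0.05 and otherwise those of largest difference up to 4, and the 10 genes most correlated with Junb and with Jund1, of which 1 is not reported here. Motifs and figures were made in Python 3.11.15 with matplotlib 3.10.9. No gene set test was run.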

Additional observations from a re-analysis of the deposited data

Results flagged for a closer look

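Batf in Cd151-/- glomeruli was the only value of a member set apart within its genotype by Dixon's ratio. The level in Cd151-/- mouse 2 was 5.76, against 4.89 to 5.01 in the other 3, and the gap took 0.858 of the range of the group. That mouse was also the only Cd151-/- mouse in which Batf was detected. By chance about 1 in 20 groups of 4 would stand out in this way.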

How the results depend on the processing

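The differences of Fosb, Jun, Junb, Jund1 and Atf3 kept their sign in all 20 alternatives and that of Batf in all 19, and 0 members passed adjustment in any. Their size did not always hold: the Fosb difference of -1.20 shrank to -0.29 with limma array weights and to -0.63 without background correction, that of Atf3, -0.97, to -0.64 with array weights, and that of Batf, -0.21, to -0.08 with array weights, -0.08 without background correction and -0.11 with an offset of 50. The Fos difference turned to 0.81 with array weights and ran from -1.27 to 0.25 with 1 mouse left out. The higher Fos and Fosb signals of the higher-background arrays, 2.44 and 2.01, did not pass adjustment in an equal-variance test without moderation (adjusted p-values 0.0605 and 0.0808). The Fosb set difference was 1.24 without background correction, and that of Jun, -0.30, was -0.49 with 75th percentile scaling and -0.57 to -0.10 with 1 mouse left out. The small set differences changed sign for Junb with 75th percentile scaling (-0.11), with array weights (-0.074) and with 1 mouse left out (-0.40 to 0.44), for Jund1 with 1 mouse left out (-0.11 to 0.26), and for Batf with 75th percentile scaling (-0.49). In each case the cause was not tested.

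Over all probes, 8 passed adjustment for genotype with the set as a block, 3 in the equal-variance test and 2 with the mean of a gene's probes, against 5 as reported, and 4 to 6 with 1 mouse left out. The 390 probes lower at an unadjusted p-value became 250 with 75th percentile scaling, 663 without the detection filter, 910 with the set as a block and 2480 with array weights, and 195 to 763 with 1 mouse left out, moving by over 1.5 times without Cd151+/+ mouse 1 or 2 or Cd151-/- mouse 1, 3 or 4. The 253 higher became 139, 431, 780 and 2336 in that order of settings, and 122 to 628 with 1 mouse left out, moving as far without Cd151+/+ mouse 1, 2 or 4 or Cd151-/- mouse 1, 2 or 3. The members lower at an unadjusted p-value numbered 3 to 5 with 1 mouse left out, 5 without Cd151-/- mouse 2.

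The labels number the mice within each genotype and do not pair them, and deviations of same-numbered mice correlated at -0.58, -0.40, -0.53 and -0.01. With the mouse number as a replicate block, 215 probes were lower and 4 passed adjustment, and Jun, Junb and Jund1 kept unadjusted limma p-values of 0.0160, 0.0173 and 0.00534. Scaling by the 75th percentile placed the median difference of all tested probes at -0.07. Array number and, for Fosl1, Batf and Fosb, signal near background limit what could be detected.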
